A study of Mus musculus with 4 samples.

Results

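Mitochondrial ribosomal proteins were taken as the rows of the count matrices whose symbol is Mrpl or Mrps followed by a number and at most 1 letter. This gave 78 of the 55453 rows, 49 with a large subunit symbol (Mrpl) and 29 with a small subunit symbol (Mrps). By its symbol Mrps36 is among the 29, although its product is a subunit of the 2-oxoglutarate dehydrogenase complex. Transcripts were counted in wells from mouse embryos injected with morpholinos, synthetic antisense molecules that keep a target RNA from being spliced or translated. Wells came from the morula, a compact ball of cells, and from the blastocyst, which has an outer trophectoderm and an inner cell mass. For each stage there were 2 plates with 96 wells, of which 48 had a control morpholino and 48 a morpholino against NKX1-2, a homeobox transcription factor. The 4 groups were therefore control morula, NKX1-2 morula, control blastocyst and NKX1-2 blastocyst, and no group without a morpholino was compared. The sources used here do not give strain, age, the morpholino sequences or which wells share an embryo.

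The mitochondrial ribosome translates the mRNAs of the mitochondrial genome, which encode subunits of the respiratory chain and of the ATP synthase. Its proteins are all encoded in the nucleus, made in the cytosol and imported, and many descend from bacterial ribosomal proteins while others are specific to mitochondria. Mitochondria of the early embryo are inherited from the oocyte, and respiration rises as the blastocyst forms.

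Counts were summed per plate and morpholino over the wells with at least 2000 detected genes, 368 of 384, which gave 8 sums of 1084312 to 2398605 counts with 2 plates per group. Levels are given as CPM, a sum's counts scaled to a common total, after TMM normalisation, which rescales each library so that most genes do not differ. The sources used here do not say whether a well held a single cell, so in the sums fewer cells with a transcript and less of it per cell cannot be told apart. The 9 trophectoderm markers together held 303 to 335 CPM in the morula sums and 577 to 789 CPM in the blastocyst sums, and the 6 inner cell mass markers 1014 to 1085 CPM and 238 to 326 CPM, without normalisation. Single markers went both ways: Tfap2c went from 191 to 238 CPM in the morula to 72.4 to 87.1 CPM in the blastocyst, while Lrp2 went from 0.843 to 4.80 CPM to 116 to 161 CPM. Most of the inner cell mass sum in the morula was Klf2, at 757 to 817 CPM against 89.7 to 108 CPM in the blastocyst, while Nanog had 49.0 to 67.4 CPM against 66.4 to 125 CPM. Markers of cumulus and granulosa cells summed to at most 2.05 CPM, with Inha, Fshr and Ptx3 at 0 in every sum.

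The members together held between 0.948% and 1.10% of the counts of each sum, and the ranges of the stages and of the morpholinos overlapped. A median of 67 to 73 of the 78 members was detected per well. In all, 77 members had counts in every sum. Mrpl53 had no count in any morula sum, where 3 counts would be 1.25 to 1.44 CPM, and 0.766 to 1.57 normalised CPM in the blastocyst sums. Exons of Gm42688 on the same strand cover 88.0% of the Mrpl53 exons, and Mrpl53 was too low to be tested.

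Levels were compared between members per kb of the principal transcript, as normalised CPM per kb averaged over the 8 sums. Mrps24, a small subunit protein, was highest at 453 CPM per kb. Mrpl52 at 438, Mrpl33 at 415 and Mrpl22 at 414 CPM per kb followed, all of the large subunit, and these 4 overlapped in their ranges over the sums. In the small subunit, Mrps24 was followed by Mrps21 at 262 and Mrps18c at 216 CPM per kb. At the low end, apart from Mrpl53, stood Mrps25 at 10.3, Mrpl1 at 10.8 and Mrps5 at 11.6 CPM per kb. The levels per kb thus spread over more than an order of magnitude, although the proteins that are part of the ribosome occur once in it. The exception is the stalk protein Mrpl12, which is present in several copies and stood at 233 CPM per kb, rank 10. The order depends on the division by length, and whether counts grow with transcript length is not known, since the unit counted is not given. Mrpl52 and Mrpl33 have principal transcripts of 418 and 478 bases, and Mrps25 one of 6073 bases. Without the division Mrpl15 was highest at 616 CPM (rank 21 per kb), and Mrpl17 had 415 CPM (rank 48 per kb).

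**Figure D1:**
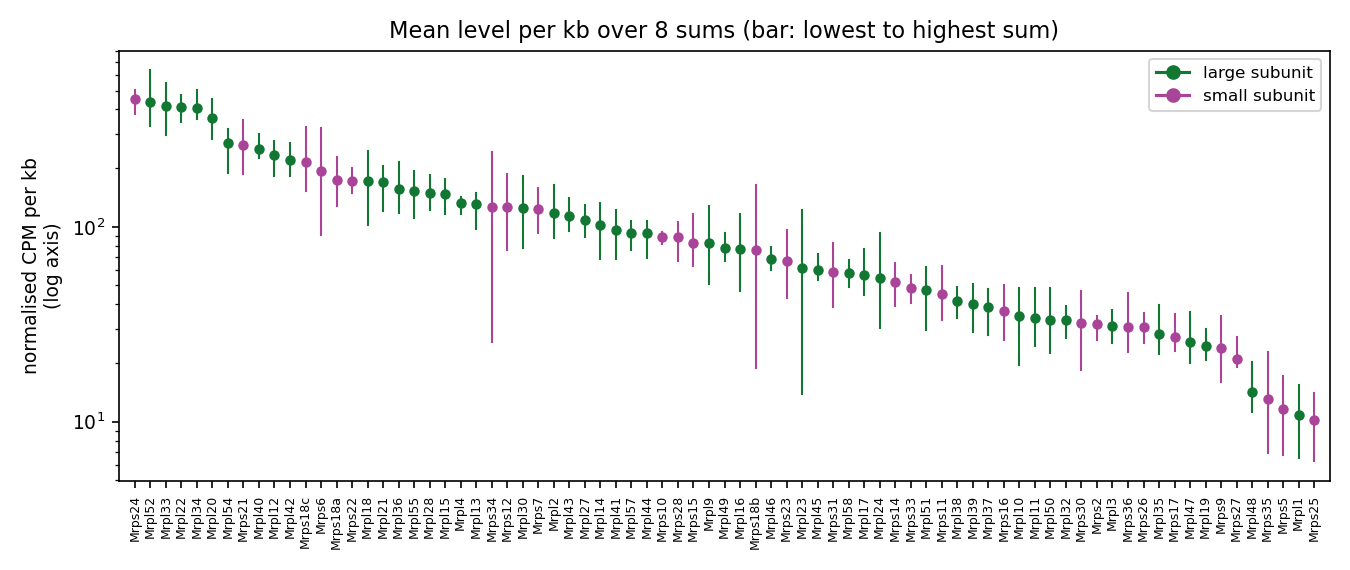
Mean TMM-normalised CPM per kb of the principal transcript (log axis) for the 77 tested members, ordered by mean; points are means over the 8 sums, bars run from the lowest to the highest sum, green is the large and purple the small subunit. Mrps24 leads at 453 CPM per kb, both subunits are spread over the whole range, and Mrps34, Mrps18b and Mrpl23 have the longest bars.

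Promoters of the members were looked up in RefSeq (GRCm38.p6), from 250 bases before to 50 bases after the start, and 69 of 78 matched. The motif of NRF1 (GCGC, A, any base and GCGC again), a factor known for driving nuclear genes of mitochondrial function, occurred in 18.8% of the 69 promoters and in 7.17% of those of 17492 coding genes. The ETS core bound by GABPA (CCGGAAG) occurred in 37.7% against 12.9%, and the YY1 core (AAGATGG) in 18.8% against 7.18%. The GC box bound by SP1 (GGGCGG) did not stand apart, at 49.3% against 49.2%. Both strands were searched, the ETS and YY1 cores can share the letters AAG, and 14 members had none of the 4. A match is a string of letters and not a measured binding site. The stretches before the start of 7 members are shown, because these members carry the stage and morpholino results or an example of a motif, with motif matches in capitals. They cover 11:120484497-120484636 (+) for Mrpl12, 3:94443196-94443335 (+) for Mrpl9, 9:98601680-98601819 (-) for Mrps22, 7:28741822-28741961 (-) for Mrps12, 16:92058196-92058269 (+) for Mrps6, 2:24975099-24975238 (-) for Mrpl41 and 4:155802738-155802877 (+) for Mrpl20. Each stretch has 140 bases, except that of Mrps6 with 74. In these stretches Mrpl12 and Mrpl9 hold the NRF1 motif and Mrps22 the ETS core next to the start. Mrps12 holds a GC box, Mrps6 several, and Mrpl41 and Mrpl20 none of the 4 motifs. In the full window searched, Mrps12 also has the ETS and YY1 cores, and Mrps22 also a GC box.
Mrpl12: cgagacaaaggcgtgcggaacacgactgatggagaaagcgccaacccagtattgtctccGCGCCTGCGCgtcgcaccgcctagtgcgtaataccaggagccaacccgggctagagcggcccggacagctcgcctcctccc
Mrpl9: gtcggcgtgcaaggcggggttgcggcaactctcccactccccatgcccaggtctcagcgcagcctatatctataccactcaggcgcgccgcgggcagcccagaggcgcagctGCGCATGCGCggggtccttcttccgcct
Mrps22: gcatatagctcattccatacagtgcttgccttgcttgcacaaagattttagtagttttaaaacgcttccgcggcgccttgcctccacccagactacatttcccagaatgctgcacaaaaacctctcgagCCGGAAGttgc
Mrps12: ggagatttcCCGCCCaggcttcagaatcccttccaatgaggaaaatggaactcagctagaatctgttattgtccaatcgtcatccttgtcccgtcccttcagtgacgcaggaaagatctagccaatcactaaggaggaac
Mrps6: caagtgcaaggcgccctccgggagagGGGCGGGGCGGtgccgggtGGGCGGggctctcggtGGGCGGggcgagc
Mrpl41: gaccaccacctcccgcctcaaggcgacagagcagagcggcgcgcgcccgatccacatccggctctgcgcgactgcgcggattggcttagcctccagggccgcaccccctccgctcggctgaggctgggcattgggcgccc
Mrpl20: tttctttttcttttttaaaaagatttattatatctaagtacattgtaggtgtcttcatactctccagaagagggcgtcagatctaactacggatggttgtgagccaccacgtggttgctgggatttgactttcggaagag

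From morula to blastocyst, 25 of 77 members changed in control wells and 35 of 77 in NKX1-2 wells, nearly all upwards and mostly by less than 1 on the log2 scale. Each plate held 1 stage. The morula sums had 2081917 to 2398605 counts and the blastocyst sums 1084312 to 1685358. Median detected genes per well were 6501 to 7136 and 4602 to 5689. Stage can thus not be told apart from depth or from other differences between the plates of the stages. In control wells, 23 of the 77 members tested were higher and 2 lower in the blastocyst (edgeR quasi-likelihood test, Benjamini-Hochberg adjusted p under 0.05), with a median log2 fold change of 0.32. Of all 9577 genes tested, 41.7% passed, 20.1% higher and 21.6% lower, with a median of -0.01. In NKX1-2 wells, 32 members were higher and 3 lower, with a median of 0.35, where 45.9% of 10221 genes passed, 21.9% higher and 24% lower. By subunit, 15 of 48 large and 8 of 29 small subunit members were higher in control wells, and 19 and 13 in NKX1-2 wells. In these 2 fits members thus passed no more often than all genes did. Those that passed were mostly higher, while all genes that passed split about evenly. The split of the members depends on the scaling. With library totals in place of TMM, the median of all genes moved to -0.29 and -0.28, and 9 members were higher and 9 lower in control wells, 18 and 11 in NKX1-2 wells, with member medians of 0.04 and 0.09. In NKX1-2 wells DESeq2 called 27 of 77 members, a larger share than the 29.3% of all genes. In control wells it called 16 of 77 members, where 26.2% of all genes passed. With edgeR, the member median in control wells was 0.23 without morula plate 1 and 0.35 without morula plate 2. It was 0.41 without blastocyst plate 1 and 0.19 without blastocyst plate 2. There, 7 members passed without morula plate 1 (26.4% of all genes), 13 without morula plate 2 (26.2%) and 13 without blastocyst plate 2 (30.8%). In NKX1-2 wells leaving out any plate gave 22 or 23 members, where 19.5% to 34.7% of all genes passed.

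**Figure D2:**
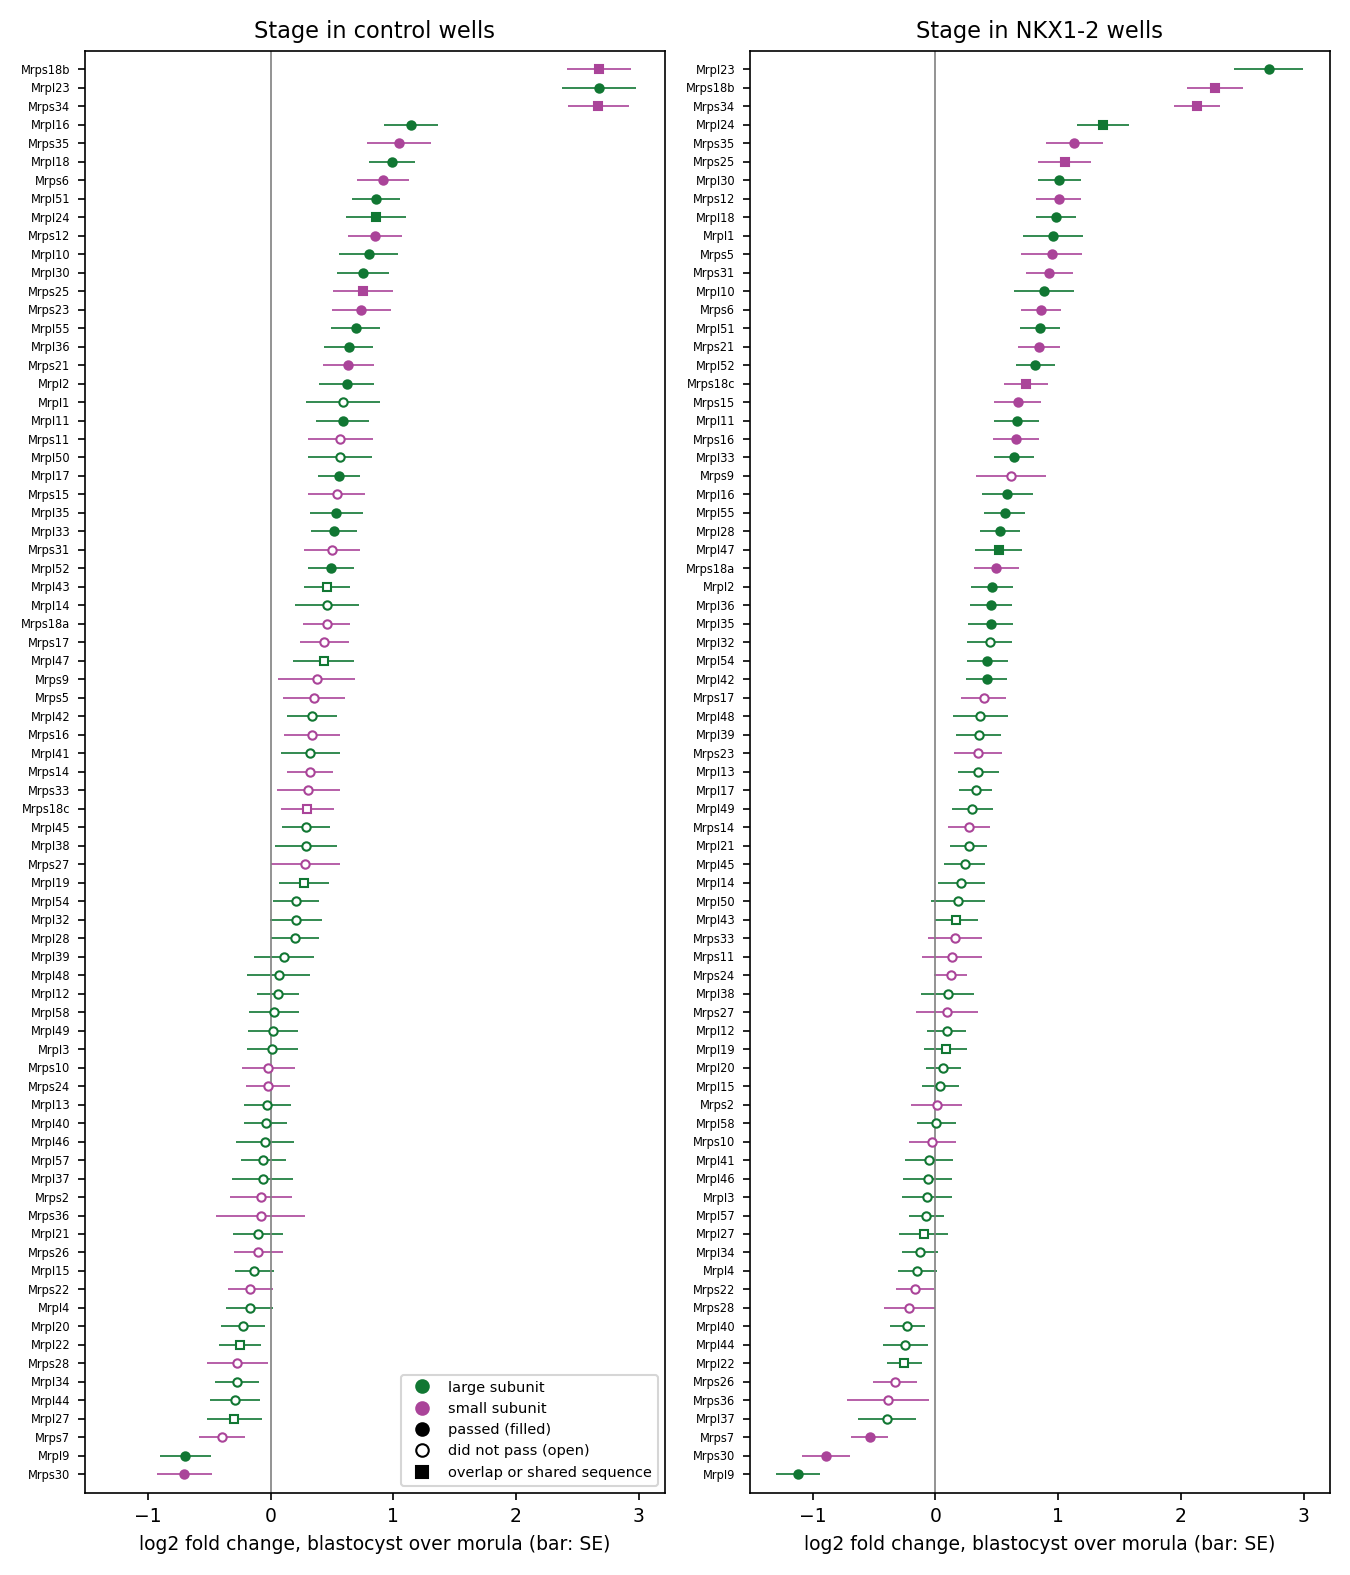
Fitted log2 fold change of blastocyst over morula for the 77 tested members in control wells (left) and NKX1-2 wells (right), ordered by value; bars are standard errors, filled symbols passed an adjusted p of 0.05, squares are members that overlap or share sequence with another gene by over 25%. Mrps34, Mrps18b and Mrpl23 stand apart at the top, above 2 in both panels, and Mrpl9 and Mrps30 are lowest.

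Mrps34, Mrps18b and Mrpl23 rose most, and the annotation makes all of them uncertain. Mrps34, a small subunit protein specific to mitochondria (chromosome 17, 24895116 to 24897502, plus strand), measured 23.7 and 35.6 CPM in the control morula sums and 161 and 211 CPM in the control blastocyst sums. In NKX1-2 wells it measured 46.8 and 46.7 CPM, and 186 and 222 CPM. The log2 fold changes were 2.67 (SE 0.25, adjusted p = 1.07e-08) and 2.13 (SE 0.18, adjusted p = 4.07e-08). The stages do not overlap, but 63.4% of the Mrps34 exons are overlapped on the opposite strand, where Mapk8ip3 lies, and 37.0% on the same strand. Of its stretches of 31 bases, 73.8% occur in another gene, and the use of strand in counting is not given.

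Mrps18b is 1 of 3 mouse counterparts of a single bacterial small subunit protein. It measured 20.3 and 27.4 CPM in control morula and 125 and 176 CPM in control blastocyst sums, which is 2.68 higher on the log2 scale (SE 0.26). In NKX1-2 wells it measured 23.8 and 29.2 CPM against 108 and 147 CPM, a log2 fold change of 2.27 (SE 0.23). An antisense gene, Gm16279, overlaps 30.5% of its exons. The other two counterparts moved less: Mrps18c had 0.30 (adjusted p = 0.28) in control and 0.74 (adjusted p = 0.0025) in NKX1-2 wells, and Mrps18a 0.46 (adjusted p = 0.062) and 0.50 (adjusted p = 0.034). In NKX1-2 wells, Mrps18c did not pass without blastocyst plate 1 (adjusted p = 0.089). Mrps18a did not pass there with DESeq2, limma voom, no filter on low counts or library totals, nor without morula plate 1, morula plate 2 or blastocyst plate 2, with adjusted p of 0.052 to 0.39.

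Mrpl23, a large subunit protein with a bacterial counterpart at the exit of the peptide tunnel, measured 12.3 and 11.0 CPM in control morula and 66.1 and 81.2 CPM in control blastocyst sums. Its log2 fold change was 2.68 (SE 0.30) in control and 2.72 (SE 0.28) in NKX1-2 wells. The pseudogene Mrpl23-ps1 held 75.0% to 85.3% of the counts of the pair in the morula sums and 36.1% to 45.4% in the blastocyst sums. The summed level of the pair, without normalisation, was 55.0 to 72.8 CPM in the morula and 89.5 to 131 CPM in the blastocyst, a smaller difference than that of Mrpl23 alone. The part of reads assigned to either copy in the change was not tested.

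**Figure D3:**
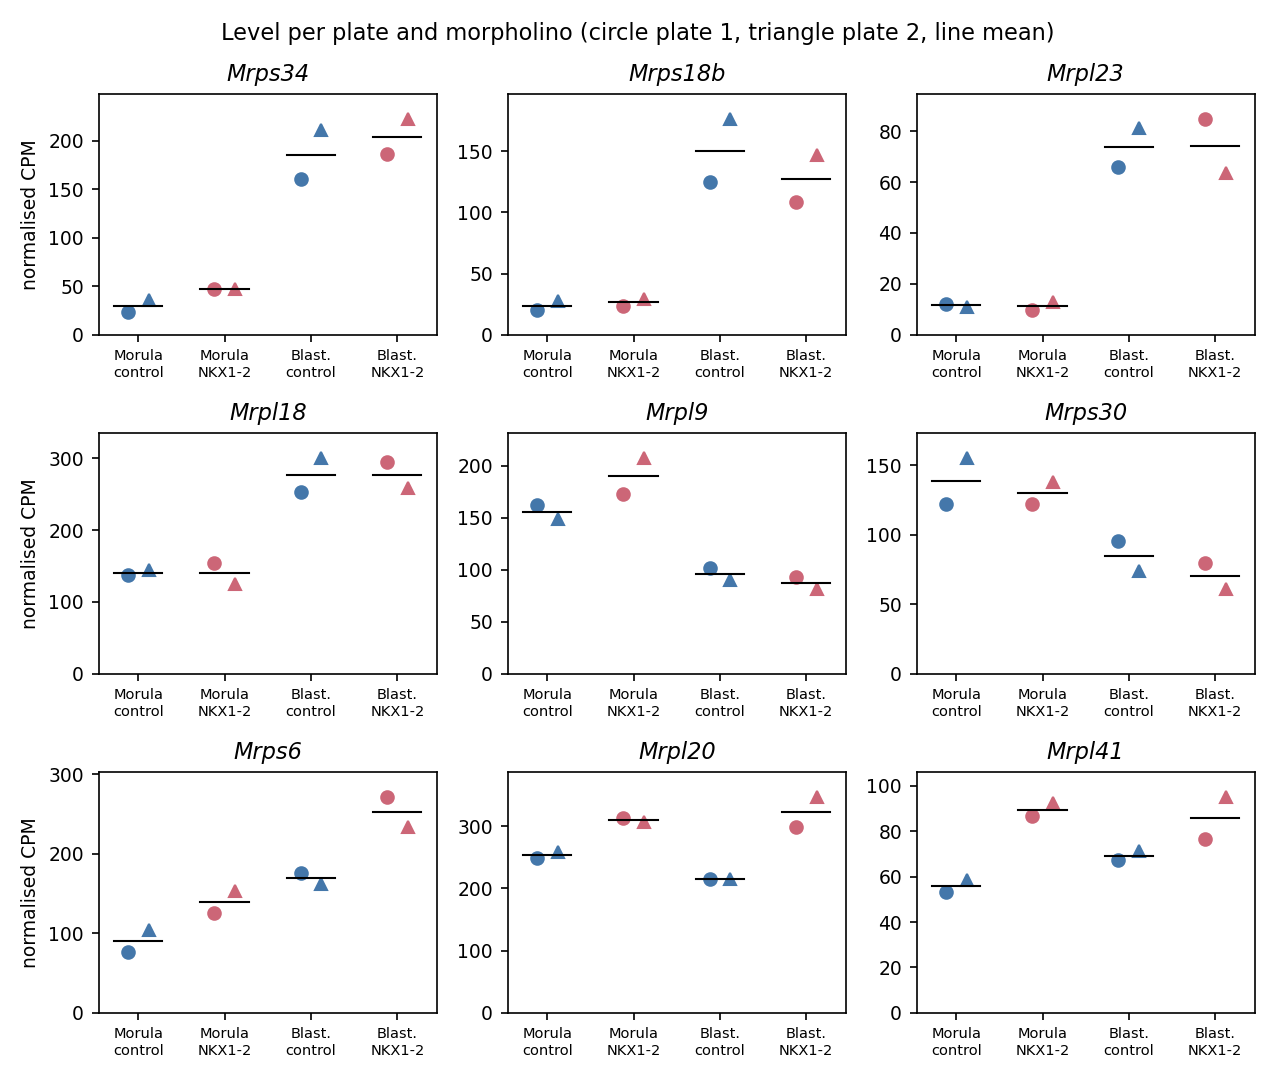
TMM-normalised CPM of 9 members in the 8 sums; circles are plate 1 and triangles plate 2 of a stage, blue is the control and red the NKX1-2 morpholino, lines are means of 2 plates, and each axis starts at 0. Mrps34, Mrps18b, Mrpl23 and Mrpl18 are higher and Mrpl9 and Mrps30 lower in every blastocyst sum than in any morula sum, and Mrps6, Mrpl20 and Mrpl41 are higher with the NKX1-2 morpholino in each plate.

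Among members that overlap or share at most 25%, Mrpl18, Mrpl16, Mrps35, Mrps6 and Mrpl51 rose in both fits and also with library totals in control wells. Mrpl18, whose bacterial counterpart binds the smallest rRNA of the large subunit, measured 137 and 144 CPM in control morula and 254 and 300 CPM in control blastocyst sums. This was a log2 rise of 0.99 (SE 0.19, adjusted p = 0.00019), beside 0.98 (SE 0.16) in NKX1-2 wells. Mrpl16, which lies near the tRNA sites of the large subunit, measured 57.5 and 60.2 CPM against 135 and 123 CPM, and its log2 fold change was 1.14 (SE 0.22) in control and 0.59 (SE 0.21) in NKX1-2 wells. Its exons overlap no other gene, and 0.0947% of its sequence is shared. Mrps35, a small subunit protein specific to mitochondria, had log2 fold changes of 1.05 (SE 0.26) and 1.13 (SE 0.23), and Mrpl51 0.86 (SE 0.20) and 0.85 (SE 0.16). In control wells, Mrpl51 (adjusted p = 0.082) and Mrps6 (0.091) did not pass without morula plate 1, and Mrps35 did not pass without morula plate 2 (0.064) or blastocyst plate 2 (0.052).

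In NKX1-2 wells, Mrpl24 (1.36, SE 0.21), Mrps25 (1.05, SE 0.22), Mrpl30 (1.01, SE 0.18) and Mrps12 (1.00, SE 0.18) were also among the 8 largest log2 rises. All 4 passed in control wells too, with 0.86, 0.75, 0.76 and 0.85. Nr2c2 overlaps 69.8% of the Mrps25 exons and Rrnad1 26.3% of those of Mrpl24, both on the opposite strand. Mrps12 (chromosome 7, 28739641 to 28741820, minus strand), the protein of the decoding site, measured 73.1 and 93.1 CPM in control morula and 130 and 165 CPM in control blastocyst sums, and 0% of its sequence is shared. Its adjusted p in control wells was 0.12 without morula plate 1. The other 15 higher members of the control wells lay between 0.49 (Mrpl52) and 0.86 (Mrpl24), and the other 24 of the NKX1-2 wells between 0.42 (Mrpl42) and 0.98 (Mrpl18). The 32 large and 20 small subunit members that did not pass in control wells ranged from -0.40 (Mrps7) to 0.59 (Mrpl1).

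Mrpl9, Mrps30 and Mrps7 went the other way. Mrpl9, a large subunit protein (chromosome 3, 94443318 to 94451130, plus strand), measured 163 and 149 CPM in control morula and 101 and 90.3 CPM in control blastocyst sums, and 173 and 207 CPM against 93.2 and 81.6 CPM in NKX1-2 wells. Its log2 fold changes were -0.69 (SE 0.21, adjusted p = 0.0096) and -1.12 (SE 0.18, adjusted p = 5.57e-05). Mrps30, whose protein sits in the large subunit despite its name, measured 122 and 155 CPM against 96 and 74.3 CPM in control wells. Its log2 fold changes were -0.70 (SE 0.22, adjusted p = 0.015) in control and -0.89 (SE 0.20) in NKX1-2 wells. Every blastocyst sum of both genes was below every morula sum. In control wells, Mrpl9 did not pass without morula plate 1 (adjusted p = 0.12), and Mrps30 did not pass without morula plate 2 (0.22) or blastocyst plate 2 (0.11) or with DESeq2 (0.058). In NKX1-2 wells Mrps30 did not pass without blastocyst plate 2 (0.051). Mrps7, a protein of the small subunit head, passed in NKX1-2 wells (-0.54, SE 0.15, adjusted p = 0.0082) but not without morula plate 2 (0.062) or blastocyst plate 1 (0.13). The difference between the stage effects of the morpholinos was not past the threshold for any member.

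Functional centres of the ribosome did not move as 1 group. At the stalk, which recruits translation factors, Mrpl12 stood at 0.06 on the log2 scale (adjusted p = 0.79) and its anchor Mrpl10 at 0.80 (adjusted p = 0.010), with Mrpl11 at the base at 0.59 (adjusted p = 0.031), all in control wells. Mrpl10 did not pass there with library totals (adjusted p = 0.086) or without morula plate 1 (0.14) or morula plate 2 (0.11). Mrpl11 did not pass with library totals (0.25), DESeq2 (0.095) or no filter (0.15), nor without morula plate 1, morula plate 2 or blastocyst plate 2 (0.15 to 0.29). Mrpl3, of the peptidyl transferase region, had 0.01 (adjusted p = 0.97), and Mrpl58, a peptidyl-tRNA hydrolase built into the large subunit, 0.03 (adjusted p = 0.92). Of the most abundant members per kb, Mrpl33 (0.51), Mrpl52 (0.49) and Mrps21 (0.63) passed in control wells, but none of them with library totals, DESeq2 or no filter, or without either morula plate. Mrpl33 and Mrps21 also did not pass without blastocyst plate 2 (adjusted p = 0.079 and 0.10), nor did Mrpl52 without blastocyst plate 1 (0.057) or with deep wells thinned (0.053). Mrps24 (-0.02) and Mrpl22 (-0.25) did not pass with TMM, and Mrpl22 was lower with library totals (-0.53, adjusted p = 0.014). In NKX1-2 wells Mrpl10 (0.89), Mrpl11 (0.66), Mrpl33 (0.64), Mrpl52 (0.81) and Mrps21 (0.84) passed. Mrpl12 (0.09), Mrpl3 (-0.07), Mrpl58 (0.01), Mrps24 (0.12) and Mrpl22 (-0.25) did not. Mrpl11 and Mrpl33 did not pass there with library totals. Leaving out 1 plate gave 0.64 to 1.10 for Mrpl10, 0.63 to 0.71 for Mrpl11 and 0.46 to 0.78 for Mrpl33, none of which passed in every such fit.

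The ratio of large to small subunit counts was 2.35 to 2.46 in the 4 morula sums and 2.17 to 2.24 in the 4 blastocyst sums, so the stages did not overlap. On the log2 scale the ratio differed between stages by -0.12 in control and -0.14 in NKX1-2 wells, against SDs between plates of 0.021 and 0.030. The difference depended on which members were summed. Without the 3 most abundant members of each subunit it was -0.28 in control and -0.29 in NKX1-2 wells. Another cut, made after seeing the data, left out the 11 members that overlap or share over 25% with another gene (7 large, 4 small). The ratio was then 2.27 to 2.37 in the morula and 2.32 to 2.35 in the blastocyst. The log2 difference became 0.02 in both kinds of wells. This cut takes out Mrps34 and Mrps18b, the small subunit members that rose most, so the part of uncertain counts in the difference was not tested. The morpholino moved the log2 ratio of all members by 0.00 in the morula and -0.02 in the blastocyst, less than the SDs between plates of 0.030 and 0.038. This ratio was described and not tested.

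**Figure D4:**
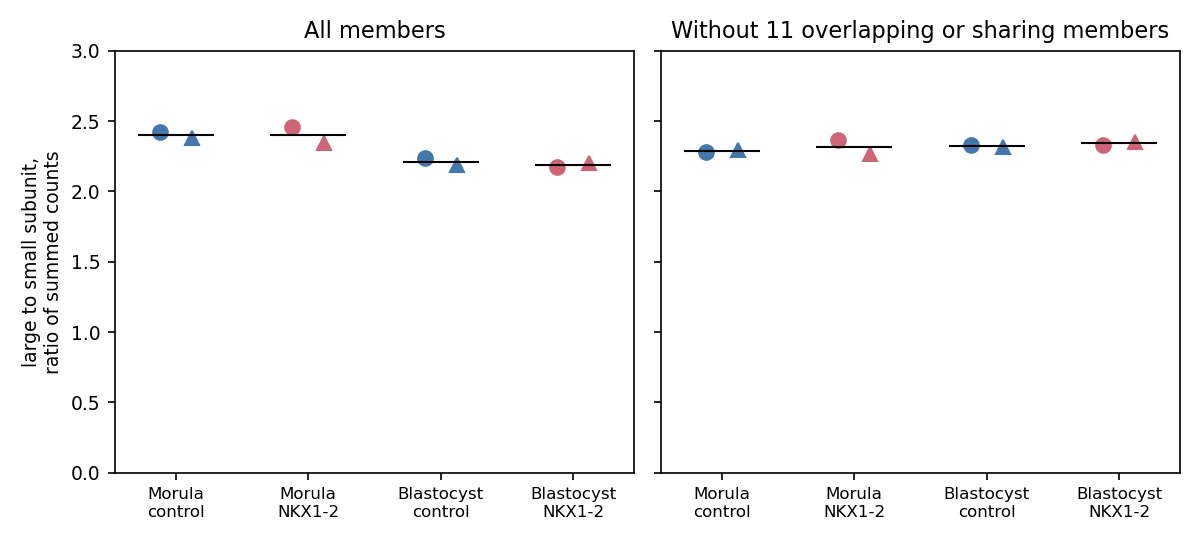
Ratio of summed large subunit to summed small subunit counts in each of the 8 sums, for all members (left) and without the 11 members that overlap or share sequence by over 25% (right); circles are plate 1, triangles plate 2, lines are means, blue is control and red NKX1-2, and the axis starts at 0. On the left all blastocyst sums (at most 2.24) lie below all morula sums (at least 2.35); on the right the stages overlap.

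The morpholino against NKX1-2 changed few members, and those by less than 1 on the log2 scale. In the morula alone, in the blastocyst alone and in the difference between the stages, 0 of 77 members passed edgeR's test, where 0.552%, 0.727% and 0.0184% of 10873 genes did. At an unadjusted p under 0.05 (edgeR) there were 6 higher and 5 lower members in the morula, 4 and 3 in the blastocyst, and 0 for the difference. Of all 10873 genes tested, 620 were higher and 539 lower in the morula at that threshold. In the blastocyst there were 753 and 738, and for the difference 342 and 357. DESeq2 and limma voom also gave 0 members in these 3 comparisons, where few genes passed at all. Of all genes, DESeq2 called 0.138%, 0.184% and 0.0092%, and limma voom 0.607%, 0.497% and 0.0092%. On average over the stages, 3 members were higher and 0 lower, where 2.9% of all genes passed, 1.56% higher and 1.33% lower. The median log2 difference of the members was -0.04. This count was 0 without morula plate 1 and 1 without morula plate 2, where 0.855% and 1.17% of all genes passed, and 9 and 10 without blastocyst plate 1 or 2, where 8.4% and 8.98% did. In the morula 11 and 12 members passed when blastocyst plate 1 or 2 was left out, and 10 when the morula plates were fitted alone, where 6.94%, 7.03% and 8.03% of all genes passed. In the blastocyst 2 and 5 members passed without blastocyst plate 1 or 2, where 4.71% and 5.32% of all genes did.

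Mrps6, Mrpl20 and Mrpl41 were the members that passed. Mrps6, a small subunit protein with a bacterial counterpart (chromosome 16, 92058270 to 92112227, plus strand), measured 76.9 CPM in control and 125 CPM in NKX1-2 wells of morula plate 1, and 104 and 154 CPM in morula plate 2. In the blastocyst plates the levels were 176 against 271 CPM and 162 against 234 CPM. Every plate showed a higher level with the NKX1-2 morpholino, by 0.69, 0.56, 0.62 and 0.53 on the log2 scale, and the average was 0.60 (SE 0.10, adjusted p = 0.0047, edgeR). Without morula plate 1 the adjusted p was 0.11, at 0.58. Mrps6 also rose from morula to blastocyst, by 0.92 (SE 0.21) in control and 0.86 (SE 0.16) in NKX1-2 wells, and Gm49711 covers 19.9% of its exons on the same strand.

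Mrpl20, whose bacterial counterpart acts early in large subunit assembly, measured 249 against 313 CPM and 259 against 306 CPM in the morula plates, control before NKX1-2. In the blastocyst plates it measured 215 against 299 CPM and 216 against 346 CPM. It was higher in 4 of 4 plates, with an average log2 difference of 0.43 (SE 0.09, adjusted p = 0.020). Mrpl41, a large subunit protein specific to mitochondria, measured 53.2 against 86.6 CPM, 58.4 against 92.5 CPM, 67.2 against 76.8 CPM and 71.2 against 95 CPM in the same order. Its average was 0.50 (SE 0.13, adjusted p = 0.045). With DESeq2 only Mrps6 of the 3 passed (adjusted p = 0.19 for Mrpl20 and 0.49 for Mrpl41), and Mrpl41 did not pass with limma voom (0.054). Neither Mrpl20 nor Mrpl41 passed when either morula plate was left out, with adjusted p of 0.17 to 0.46.

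Short of the threshold, Mrpl14, a protein at the face that meets the small subunit, was higher in 4 of 4 plates with an average of 0.51 (SE 0.13) and an unrounded adjusted p just above 0.05. It passed with RLE size factors (0.045). The stalk protein Mrpl12 was lower in 4 of 4 plates, with 312 against 274, 362 against 248, 354 against 240 and 345 against 314 CPM, an average of -0.35 (SE 0.10, adjusted p = 0.072). Mrpl57 differed by 0.27 to 0.32 in every plate (average 0.30, adjusted p = 0.093). Mrps34 was 0.95 higher in morula plate 1 and 0.08 higher in blastocyst plate 2, so its plates differed widely. Wells that had Xist but no Y-linked counts made up different shares under the morpholinos, 20.8% against 52.1% and 48.9% against 56.3% in the morula plates and 74.5% against 34.9% and 45.5% against 14.0% in the blastocyst plates, NKX1-2 before control. All members lie on autosomes, and the part of this imbalance in the result was not tested.

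**Figure D5:**
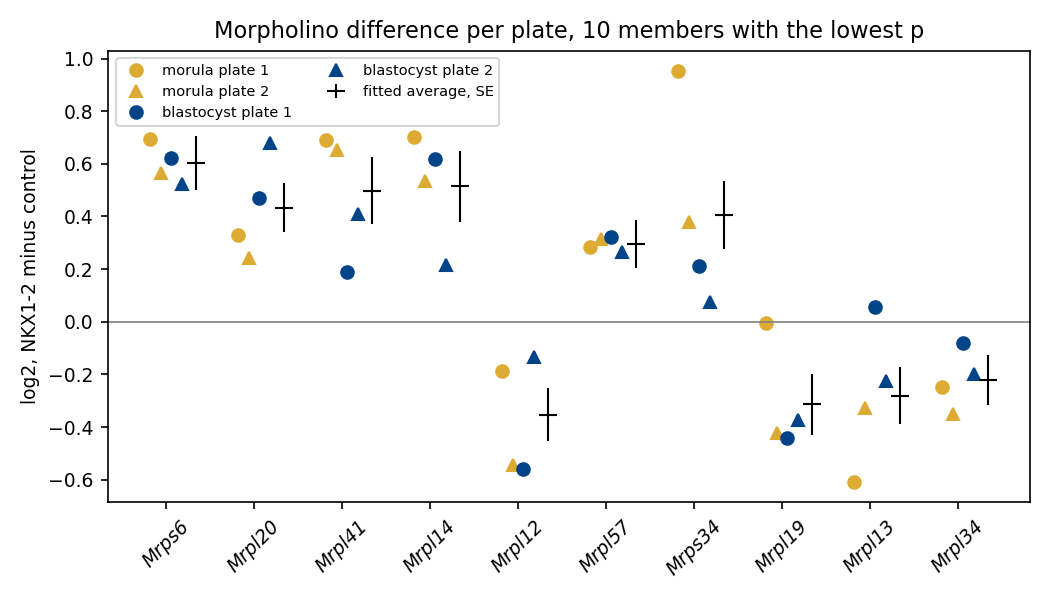
Log2 difference of NKX1-2 minus control wells within each of the 4 plates for the 10 members with the lowest p in the average over stages; yellow is the morula, blue the blastocyst, circles plate 1, triangles plate 2, and black marks are fitted averages with SE. Mrps6 lies between 0.53 and 0.69 in all plates, and Mrpl12 is below 0 in all plates.

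Several members share a promoter region with a neighbour on the opposite strand. Starts within 1000 bases, head to head, were found for 18 of 78 members (23.1%) and for 6.79% of 21951 coding genes in GENCODE M21. Between stages, 9 of 12 pairs tested in control wells and 9 of 13 in NKX1-2 wells had the same sign. Both genes passed in 3 pairs in control wells, 2 in the same and 1 in opposite directions. In NKX1-2 wells both passed in 6 pairs, 2 in the same and 4 in opposite directions. Of single genes 41.7% and 45.9% passed, which is not a share of pairs. The shares over other head to head pairs were not computed. Mrps12 rose while Sars2, the mitochondrial seryl-tRNA synthetase 172 bases away, fell by 0.84 in control and 0.78 in NKX1-2 wells on the log2 scale. Mrpl30 and Mitd1, 66 bases apart, both rose, with Mitd1 at 1.13 and 1.41. Mrps18b and Ppp1r10, 45 bases apart, also both rose, with Ppp1r10 at 1.09 and 1.22. Mrpl49 had 0.02 in control wells while Fau, 59 bases away, which encodes a cytosolic ribosomal protein, had 3.09.

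Other genes of mitochondrial translation were read from chosen lists. Beside their stage counts stand all genes tested, of which 20.1% were higher and 21.6% lower in control wells. In NKX1-2 wells 21.9% were higher and 24% lower. Of 5 ribosomal proteins without an Mrp symbol, Dap3, of the small subunit, rose between stages (1.65 in control, 0.96 in NKX1-2 wells) and was lower with the NKX1-2 morpholino in the blastocyst (-0.95, adjusted p = 0.045) and on average (-0.62). Of 26 assembly and rRNA modification factors tested, 3 were higher and 4 lower in control wells (Rbfa at 2.75, which matures the small subunit, and Ddx28 at -1.77 and Dhx30 at -1.58, helicases of assembly), and 4 and 7 in NKX1-2 wells. Of 14 translation factors 6 were higher and 0 lower in control wells, led by Slirp at 4.49, an RNA-stabilising partner of Lrpprc (0.91), and of 13 tested in NKX1-2 wells 3 were higher and 1 lower. Of 17 mitochondrial tRNA synthetase genes, 2 were higher and 2 lower in control wells and 3 and 2 in NKX1-2 wells. Among transcription genes, Tfam, which packages mitochondrial DNA, rose (1.05 and 1.11) and Polrmt, the mitochondrial RNA polymerase, fell (-1.80 and -1.67). Of 7 mitochondrially encoded mRNAs tested, 1 was higher and 5 lower in each comparison of stages.

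Cytosolic ribosomal proteins had a median log2 fold change between stages of 1.46 in control and 1.40 in NKX1-2 wells, with 72 of 86 and 77 of 87 higher. Nuclear genes of oxidative phosphorylation had medians of 0.36 and 0.50, with 32 of 79 and 49 of 80 higher, beside the members' 0.32 and 0.35. These medians were set side by side and their differences were not tested. Overlap, shared sequence and the dependence on scaling were examined for the members, but not for these lists, the lists before them or the head to head neighbours. For the average effect of the morpholino, 4 of 87 cytosolic ribosomal proteins were lower and 0 higher. Of 80 oxidative phosphorylation genes, 2 were higher and 2 lower. Of all genes tested, 1.56% were higher and 1.33% lower.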

How the data were processed

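The deposited values are raw counts per gene and well, which the authors did not normalise as far as the values show. Per the submitters' processing notes TopHat2 and the builds GRCm38 and mm10 were used; the sources used here do not give the counting tool, its use of strand, or the unit counted (reads or molecules). Wells were assigned to a morpholino by a deposited barcode table. The labels name no separate embryos, so the plate is the replicate. For the stages, p-values measure the spread between plates. For the morpholino they measure how the difference within a plate varies between plates, pooled over both stages. In the edgeR fits this spread is also stabilised over all genes tested. None of these p-values measures the spread between embryos.

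Counts were summed per plate and morpholino and fitted with edgeR 4.0.16 (limma 3.58.1, R 4.3.3; TMM, filterByExpr, robust quasi-likelihood, Benjamini-Hochberg over all genes tested). Stages were compared in the 4 control sums and in the 4 NKX1-2 sums; the morpholino in all 8 sums, blocked by plate, since both sums of a plate share it. Log2 differences per plate used log CPM with a prior count of 2. A block of 344 neighbouring rows without morula counts was left out; it holds 0 members. Exon overlap and shared stretches of 31 bases were computed from GENCODE M21. Alternatives were other normalisations, DESeq2 1.42.0, limma voom, other filters on genes and wells, and each plate left out; library totals and the subunit ratio without overlapping members were added after seeing the data. Values are printed for the up to 8 largest changes per direction that passed, moved alike in every plate and reached 20 CPM, or the 4 lowest p, and for fixed functional members. Mrpl57, Mrpl53 and the genes of other lists were chosen after their values were seen. The members and lists were chosen with earlier results of these data known.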

Additional observations from a re-analysis of the deposited data

Results flagged for a closer look

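Mitochondrial ribosomal pseudogenes outside the symbol rule carried counts that enter none of the member counts or tests above; Mrpl23-ps1 was set beside Mrpl23 only. Mrpl23-ps1 held 737 counts and Mrpl48-ps 283 counts over the 8 sums, above the 3 counts that a count of 0 allows. Mrpl48-ps measured 18.8 to 25.7 CPM in the morula sums and 12 to 16.3 CPM in the blastocyst sums, without normalisation, while Mrpl48 itself measured 52.8 to 68.8 and 45.9 to 77.9 CPM.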

How the results depend on the processing

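Counts of members past the threshold were within 1.5 times those reported under most alternatives. DESeq2 gave 16 for the stage in control wells and 1 for the average of the morpholino, where 26.2% and 0.552% of all genes passed. Without a filter on low counts there were 2 in the morula, 2 in the blastocyst and 5 on average. Of all genes 0.61%, 0.865% and 1.81% passed there. Without each gene's highest well there were 1, 1 and 5, where 0.912%, 1.26% and 3.88% of all genes passed. Thinned wells gave 1 in the blastocyst (0.991% of all genes), and the plates of the morula alone 10 (8.03%). Leaving out 1 plate gave 7 to 31 and 22 to 23 members for the stage in control and NKX1-2 wells, with 7 without morula plate 1, 13 without morula plate 2 or blastocyst plate 2. For the morpholino it gave 0 to 12 in the morula, 0 to 5 in the blastocyst, 0 to 10 on average (0 without morula plate 1, 1 without morula plate 2, 9 and 10 without blastocyst plate 1 or 2) and 0 for the difference; a stage left with 1 plate is assumed to vary like the others.

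With the replicate block, 25 and 36 members passed for the stage in control and NKX1-2 wells, where 38.5% and 46.3% of all genes did. Without the plate block 2 members passed on average over stages, where 1.7% of all genes did. Replicate numbers are shared by label only, with deviations correlated at 0.025 and -0.002 across stages, while the sums of a plate correlated at 0.257 in the morula and -0.000704 in the blastocyst.

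The log2 subunit ratio between stages was -0.157 and -0.187 with Mrps18a and Mrps30 in the large subunit and Mrps36 left out. It was -0.279 and -0.287 without the 3 most abundant members of each subunit. Without overlapping members it was 0.023 and 0.015, and 0.011 and 0.0029 also without Mrpl23, which was singled out after its value was seen. Leaving out a plate gave -0.134 to -0.0995 and -0.170 to -0.103 for the stages, -0.020 to 0.023 and -0.045 to 0.0087 for the morpholino in morula and blastocyst.

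Signs turned for members near 0 that did not pass. In control wells, without a filter and with library totals, Mrpl12 was -0.066 and -0.22, Mrpl3 -0.12 and -0.27, and Mrpl58 -0.099 and -0.25. With both morpholinos summed, Mrpl3 was -0.041 and Mrps24 0.058, and Mrps24 was 0.0076 without each gene's highest well. Leaving out 1 plate gave -0.066 to 0.14 for Mrpl12, -0.16 to 0.14 for Mrpl3, -0.086 to 0.14 for Mrpl58 and -0.23 to 0.16 for Mrps24. In NKX1-2 wells, without a filter and with library totals, Mrpl12 was -0.023 and -0.17 and Mrpl58 -0.11 and -0.25, and Mrps24 was -0.14 with library totals. Leaving out 1 plate gave -0.12 to 0.28 for Mrpl12, -0.34 to 0.18 for Mrpl3 and -0.12 to 0.083 for Mrpl58. The causes were not tested.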
